A study of Homo sapiens with 36 samples.

Results

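The formins analysed here were 9 genes of the family: DIAPH1, DIAPH2, DIAPH3, FMNL1, FMNL2, FMNL3, DAAM1, FHOD1 and INF2. They were taken by gene symbol, with every probe set annotated to them, out of 19775 genes with a probe set, and they held 29 of the 54593 probe sets of the array. Each was compared between the pseudopods (PS) and the cell bodies (CB) of 6 human cancer cell lines. Of the 29 formin probe sets, 22 were bright enough to be tested in at least 1 group and 7 were not.

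Formins are actin assembly proteins that nucleate unbranched filaments and stay on the growing barbed end, where profilin delivers new actin monomers. Most are held inactive by a contact between their ends, which an activating partner releases. In moving cells they build filopodia, stress fibres and part of the lamellipodial network, alongside the branched network that the Arp2/3 complex makes, and several also act on microtubules.

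RNA was measured on 36 HG-U133 Plus 2.0 arrays, 3 for each fraction of each line. Cells had been kept for 24 hours on a filter whose pores let protrusions, but not whole cells, reach the underside, and each side was then scraped off. U87 and U251 (glioblastoma) and HT1080 (fibrosarcoma) grew in DMEM, and DU145 (prostate carcinoma), MDA231 (breast carcinoma) and MDA435 (a line described as breast cancer that carries melanocytic genes) grew in RPMI-1640, all with serum. The labels name no transgene or drug. Medium and line cannot be told apart, and every array started from 100 ng of RNA that was amplified in 2 cycles. The labels do not say that the 3 arrays of a group came from separate cultures, so p-values measure the spread between these arrays, which may be technical.

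Values are intensities in the arrays' own units, brought to a common trimmed mean of 149.18 to 149.59 before deposit, with array medians from 18.2 to 30.6. A log2 change is a difference of log2(intensity + 16), pseudopod minus cell body, and a fold is made from it, so it understates the change of dim probe sets. Where a gene had several probe sets, the one brightest on average across the 36 arrays stood for it. "Called" means a Benjamini-Hochberg adjusted p under 0.05 in limma over all 15294 genes, or 34976 probe sets, tested in that contrast. Because of the common scaling, a change is relative to the rest of the RNA of a fraction: fewer molecules of 1 transcript and more of all others cannot be told apart.

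The fractions differed in RNAs that mark either side. RNA45SN5, MALAT1, HSP90B1, CALR and P4HB, fixed as cell body genes, fell in 5 of 5 cases, and RAB13, NET1, S100A11 and KIF1C, fixed as protrusion genes, rose in 4 of 4, although both lists were written with earlier results of these data known. Each of the 36 arrays was closest to an array of its own line. Replicate arrays of MDA231 and MDA435 differed in the epithelial cadherin gene CDH1, which exceeded 100 intensity units in 2 of 6 MDA231 arrays (PS replicate 3 and CB replicate 2, at 1299 and 1778) and in 4 of 6 MDA435 arrays (PS replicates 1 and 2 and CB replicates 2 and 3, from 921.5 to 2463). Some values that rest on these 6 arrays are therefore also given without them, among them the averaged formin calls. Cell body levels and single probe sets were not fitted without these arrays. All DU145 arrays exceeded 100 in CDH1, but PS replicate 1 read 319 and CB replicate 3 read 857. The other DU145 arrays read 1350 to 2237. DU145 PS replicate 1 and CB replicate 3 held the highest FMNL2 (1012 and 769), FMNL1, FHOD1, INF2 and DIAPH2 of their fractions. They also held the lowest DIAPH3 and DAAM1. No fit of DU145 left both out, and the part of CDH1 in these values was not tested.

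Averaged over the 6 lines, DIAPH1 fell in pseudopods, and INF2 and DIAPH2 rose. DIAPH1, which elongates filaments and stabilises microtubules, was 1.54-fold lower, INF2, which both polymerises and severs actin, was 1.38-fold higher, and DIAPH2 was 1.14-fold higher. Each of these 3 had 1 sign in 6 of 6 lines, but not under every alternative. In MDA231 DIAPH1 turned from -0.04 to 0.13 with equal array medians and to 0.05 without the arrays high in CDH1, and DIAPH2 turned from 0.02 to -0.01 without those arrays. DIAPH2 in U87, MDA231 and MDA435, DIAPH1 in MDA231 and INF2 in MDA231 also turned when certain single arrays were left out. The other 6 formins did not pass the test. The 3 of 9 formins called (33.3%) are a lower share than the 50.6% of all genes called in this contrast, a difference that was not tested. Over all genes tested, 29.7% rose and 20.8% fell. The median change of the 9 formins was 0.08 on the log2 scale, against 0.05 over all genes.

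**Figure D1:**
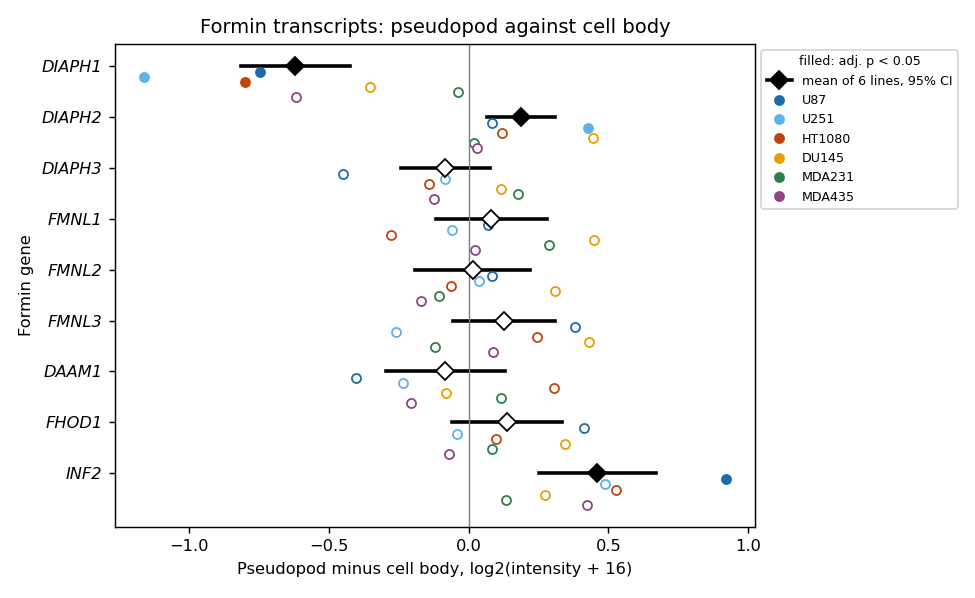
Log2 change, pseudopod minus cell body, of each formin gene (vertical axis) averaged over 6 lines (diamond, with its 95% confidence interval) and in each line (circles, 3 arrays per fraction); filled symbols were called at an adjusted p under 0.05. DIAPH1 lies left of 0 and INF2 and DIAPH2 right of 0 in 6 of 6 lines, while the circles of the other 6 formins lie on both sides.

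DIAPH1 encodes mDia1, a diaphanous-related formin. In U251 its probe set 209190_s_at read 278, 456 and 226 in the pseudopod arrays and 926, 587 and 643 in the cell body arrays. In HT1080 it read 707, 608 and 679 in pseudopods and 1233, 1137.5 and 1133 in cell bodies. The arrays of the fractions did not overlap in either line, and every pseudopod array was below every cell body array. The change was -1.16 ± 0.23 in U251 (SE; 2.23-fold lower; limma, adjusted p = 0.00095) and -0.80 ± 0.23 in HT1080 (1.74-fold lower; limma, adjusted p = 0.0113).

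In U87 DIAPH1 stood at 873, 409.9 and 621 in pseudopods and at 1134, 1122 and 852 in cell bodies. Here the highest pseudopod array passed the lowest cell body array, so the fractions overlapped by 1 array on each side. The change of -0.74 ± 0.23 was called (limma, adjusted p = 0.0193), but not without PS replicate 2, CB replicate 1 or CB replicate 2, and it ranged from -1.002 to -0.47 when single arrays were left out (adjusted p up to 0.215). It also missed the threshold with equal array medians (-0.65, adjusted p = 0.0505) and with U87 fitted alone (-0.74, adjusted p = 0.118).

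In MDA435 the DIAPH1 intensities were 682, 448 and 762 in pseudopods against 831, 959 and 1089 in cell bodies. In DU145 they were 925, 879 and 646 against 1134, 1019.6 and 959.7. Both lines had all pseudopod arrays below all cell body arrays, with changes of -0.62 ± 0.23 (limma, adjusted p = 0.0868) and -0.35 ± 0.23 (adjusted p = 0.457) that were not called. The MDA435 change was called with quantile normalization (-0.68, limma, adjusted p = 0.0487) and with array weights (-0.93, adjusted p = 0.00148). Without the 4 MDA435 arrays high in CDH1 it was -0.12 (adjusted p = 0.966; PS replicate 3 against CB replicate 1), and it ran from -0.77 to -0.40 when single arrays were left out. In MDA231 the intensities were 912, 880.3 and 956 in pseudopods against 805.5, 1099.9 and 935 in cell bodies, and the fractions overlapped (-0.04 ± 0.23, 95% confidence interval -0.51 to 0.44, adjusted p = 0.958).

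Over all lines DIAPH1 averaged 664 ± 225 intensity units in pseudopods and 978 ± 180.0 in cell bodies (SD, n = 18 each). The averaged change was -0.62 ± 0.10 (SE; 95% confidence interval -0.81 to -0.42; limma, adjusted p = 3.18e-06). It was -0.52 without the 6 arrays high in CDH1 (adjusted p = 0.00039) and -0.76 without both MDA231 and MDA435 (adjusted p = 1.44e-05). The call also held with the 6 line differences as the units (adjusted p = 0.00364). Although the lines ran from -1.16 to -0.04, the difference between lines did not pass the moderated F test (F = 2.74, limma, adjusted p = 0.452). In that test 1.04% of all genes were called. U251 and MDA231 were not compared as a pair, so whether the change was larger in U251 was not tested. With array weights the F test was passed (F = 4.34, adjusted p = 0.0345).

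The size of the DIAPH1 change depended on the probe set. Besides 209190_s_at, 2 other DIAPH1 probe sets were tested: 213514_s_at changed by -0.24 ± 0.11 (limma, adjusted p = 0.069) and 215541_s_at by -0.07 ± 0.14 (adjusted p = 0.704), and the latter turned to 0.02 once arrays were set to equal medians and to 0.01 after quantile normalization. The mean intensity of 213514_s_at was 101 ± 47.5 in pseudopods and 117 ± 32.8 in cell bodies (SD, n = 18 each), and its arrays overlapped over the 6 lines. The change of 209190_s_at was lower than that of 213514_s_at (difference -0.38, negative in 5 of 6 lines; two-sided permutation test of fraction labels within lines, adjusted p = 0.0339 over 13 pairs of probe sets). It was also lower than that of 215541_s_at (difference -0.55, 5 of 6 lines; permutation test, adjusted p = 0.0443). A mean of all 4 DIAPH1 probe sets includes 1 that was too dim to be tested. With it the averaged change shrank to -0.25, still called (limma, adjusted p = 0.00316), and none of the 3 line calls remained.

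**Figure D2:**
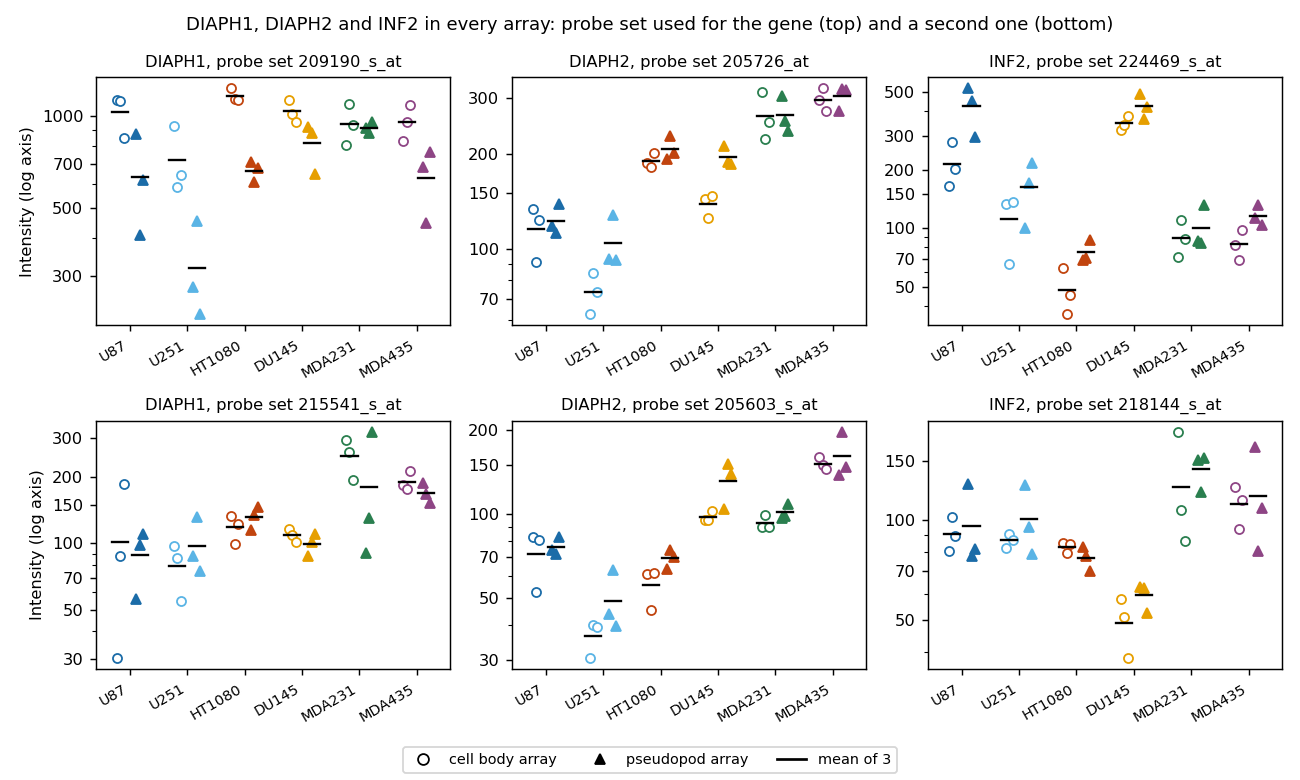
Intensity on a log axis in each of the 36 arrays for the 3 formins called in the averaged comparison, by line, with cell bodies as open circles, pseudopods as filled triangles and the mean of 3 arrays as a bar; the upper row is the probe set that represents the gene and the lower row the brightest other one tested (215541_s_at for DIAPH1). In U251 and HT1080 the DIAPH1 pseudopod arrays lie under the cell body arrays with probe set 209190_s_at, and the DIAPH2 probe sets both rise a little, by 0.19 on the log2 scale.

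DIAPH2 encodes mDia3, a relative of DIAPH1 that has been placed on endosomes and at kinetochores. In U251 its probe set 205726_at read 93.3, 128 and 92.7 in pseudopods and 62.6, 84.3 and 73.6 in cell bodies. In DU145 it read 211, 188 and 186 in pseudopods and 145, 125 and 148 in cell bodies. In these lines each pseudopod array exceeded each cell body array. The change was 0.43 ± 0.15 in U251 (1.34-fold; limma, adjusted p = 0.0459) and 0.44 ± 0.15 in DU145 (adjusted p = 0.0902), so only the U251 value passed. The DU145 change was called with quantile normalization (0.47, limma, adjusted p = 0.0411) and array weights (0.42, adjusted p = 0.00671). The U251 call was lost with a pseudocount of 64 (0.29, limma, adjusted p = 0.0673), a trended robust spread (0.43, adjusted p = 0.0538) and U251 fitted alone (adjusted p = 0.0892). The call was lost too with the mean of all 3 DIAPH2 probe sets, 1 of them too dim to be tested (0.23, limma, adjusted p = 0.187). It was also lost in 14 of 36 fits that left out 1 array, among them those without U251 PS replicate 2, U251 CB replicate 1 and U251 CB replicate 3, with values from 0.29 to 0.51 and adjusted p up to 0.272.

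In the other lines the DIAPH2 fractions overlapped, with changes of 0.12 in HT1080, 0.09 in U87, 0.03 in MDA435 and 0.02 in MDA231, none of them called (limma, lowest adjusted p = 0.63). The averaged change was 0.19 ± 0.06 (95% confidence interval 0.07 to 0.31; limma, adjusted p = 0.00943), with means of 199.8 ± 75.1 over the pseudopod arrays and 180 ± 83.9 over the cell body arrays (SD, n = 18 each). It was no longer called without DU145 (0.14, adjusted p = 0.111), without U251 (0.14, adjusted p = 0.0754) or with the lines as units (0.19, adjusted p = 0.0755). A second probe set, 205603_s_at, gave 0.19 ± 0.06 too (limma, adjusted p = 0.0122), and the averaged changes of the pair were not separated (difference -0.01, two-sided permutation test, adjusted p = 0.916).

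DIAPH3 encodes mDia2, known for filopodia and for the contractile ring of dividing cells. Its probe set 229097_at ranged from 279.6 to 1219 with a median of 539 in pseudopods and from 275 to 995 with a median of 590.4 in cell bodies. These ranges overlap almost fully, and the averaged change was -0.08 (95% confidence interval -0.24 to 0.08; limma, adjusted p = 0.394), or 0.01 with equal array medians. In U87 alone the mean was 341 ± 68.2 in pseudopods against 471 ± 94.7 in cell bodies (SD, n = 3 each; -0.45 ± 0.19, limma, adjusted p = 0.0913). A dimmer probe set, 232596_at, read 34.3, 37.6 and 33.9 in HT1080 pseudopods and 18.4, 23.6 and 8.1 in HT1080 cell bodies, and rose by 0.68 ± 0.24 there (limma, adjusted p = 0.0363; 9.99% of probe sets rose in HT1080), while 229097_at changed by -0.14 in the same arrays (adjusted p = 0.676).

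INF2 is best known for its membrane-bound form on the endoplasmic reticulum, which assembles actin where mitochondria divide, and for mutations in kidney and nerve disease. In U87 its probe set 224469_s_at read 524, 453.5 and 296 in pseudopods and 165, 279.6 and 202 in cell bodies. In HT1080 it read 68.6, 70.7 and 87.7 against 62.8, 36.4 and 45.8, and in MDA435 114, 132 and 104 against 82.5, 68.6 and 98.3. In these 3 lines every pseudopod array was above every cell body array. Only U87 was called (0.92 ± 0.25, 1.89-fold; limma, adjusted p = 0.0073), and not without PS replicate 1 or CB replicate 1 (0.75 to 1.15 over the fits that left out 1 array, adjusted p up to 0.0603), nor with U87 fitted alone (adjusted p = 0.0608). With array weights HT1080 (0.62), MDA435 (0.67) and U251 (0.60) were called too (limma, adjusted p = 0.0137, 0.0184 and 0.0262), and HT1080 also when fitted alone (0.53, adjusted p = 0.0426). Without the arrays high in CDH1 the MDA435 change was 0.29 (adjusted p = 0.877) and the MDA231 change 0.089 (adjusted p = 0.893).

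The other INF2 lines overlapped between fractions. In U251 the intensities were 101, 172 and 218 in pseudopods and 133.3, 65.9 and 137 in cell bodies. In DU145 they were 489, 366 and 419 against 319, 342 and 379, and in MDA231 86.6, 84.0 and 132 against 71.0, 110 and 88.3. The means were higher in pseudopods in each of the 3, by 0.49, 0.27 and 0.13 on the log2 scale, without passing the test (limma, lowest adjusted p = 0.216). Averaged over lines INF2 rose by 0.46 ± 0.10 (95% confidence interval 0.25 to 0.67; limma, adjusted p = 0.0004), from 149 ± 109 to 218 ± 161 (SD, n = 18 each), and it gave 0.43 without the 6 arrays high in CDH1 (adjusted p = 0.00509). The second probe set, 218144_s_at, changed by 0.10 ± 0.09 (limma, adjusted p = 0.374), with a difference between the pair of 0.36 in 5 of 6 lines (two-sided permutation test, adjusted p = 0.0502). Averaging all 4 INF2 probe sets, 2 of them too dim to be tested, gave 0.16 (limma, adjusted p = 0.0048), with no call left in U87.

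The FMNL formins act at the plasma membrane. FMNL2, a CDC42 effector that elongates lamellipodial and filopodial filaments, ranged from 546 to 2573 in pseudopods and from 470.1 to 2554 in cell bodies, and its averaged change was 0.01 (95% confidence interval -0.19 to 0.22; limma, adjusted p = 0.922). Its sign turned with quantile normalization (-0.04) and without DU145 (-0.04). In MDA435 its arrays were far apart within a fraction: the pseudopod arrays read 1318, 1705 and 2573 and the cell body arrays 2554, 1811 and 1792. The highest of each fraction, PS replicate 3 and CB replicate 1, are the 2 MDA435 arrays with CDH1 at 33.2 and 32.8. The MDA435 change was -0.17 ± 0.25 with all 6 arrays and 0.01 ± 0.38 between these 2 (SE, with the spread of a lone array assumed to be that of the other groups), neither called.

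FMNL3, a formin of filopodia and of endothelial cells, ranged from 10.0 to 263 in pseudopods and from 28.3 to 163 in cell bodies with probe set 230640_at. Its averaged change of 0.13 was not called (95% confidence interval -0.05 to 0.31; limma, adjusted p = 0.247), and averaging the FMNL3 probe sets gave -0.07. In DU145 the pseudopod arrays at 80.1, 53.6 and 41.6 lay just above the cell body arrays at 36.9, 41.4 and 36 (0.43 ± 0.22, adjusted p = 0.294). A further FMNL3 probe set, 238823_at, went the other way (-0.25 ± 0.08, limma, adjusted p = 0.014), and 230640_at exceeded it by 0.37 in 5 of 6 lines (two-sided permutation test, adjusted p = 0.0443). That call of 238823_at was lost with equal array medians (-0.15, limma, adjusted p = 0.12) and after quantile normalization (-0.14, adjusted p = 0.14).

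FMNL1, the formin of white blood cells, was dim. With probe set 204789_at it read between 1.8 and 10.2 in all arrays of U87, U251 and MDA435, and between 14.4 and 78.4 in those of HT1080, DU145 and MDA231. No detection calls were used, so values under the pseudocount of 16 carry little information on change, and the averaged change was 0.08 (95% confidence interval -0.12 to 0.28; limma, adjusted p = 0.511). It turned to -0.12 with the mean of both probe sets and to -0.02 without the 6 arrays high in CDH1. In HT1080 the pseudopod arrays at 26.6, 20.7 and 29.4 were all below the cell body arrays at 32.2, 34.1 and 36.3, which did not pass the test (-0.28 ± 0.24, adjusted p = 0.446).

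The other FMNL1 probe set, 1569257_at, was lower in the pseudopods of the same 3 lines. It read 4.6, 5.7 and 5.4 in DU145 pseudopods and 23.5, 15.7 and 36.9 in DU145 cell bodies. In HT1080 it read 7.5, 7.5 and 7.4 against 20.8, 16.5 and 19.4, and in MDA231 6.9, 8.8 and 2.5 against 21.3, 14.2 and 20.3. The fractions of these lines did not overlap, and the changes of -0.93 ± 0.16, -0.57 ± 0.16 and -0.65 ± 0.16 were called (limma, adjusted p = 0.00056, 0.0113 and 0.0116; 5.46%, 12.9% and 7.49% of probe sets fell in these lines). In U251 it was 0.25 ± 0.16 (adjusted p = 0.371), and the difference between lines passed the F test (F = 8.04, limma, adjusted p = 0.0126; 1.25% of probe sets were called). This probe set reached the filter on low values in 1 of 12 groups, the DU145 cell bodies, so its fall in DU145 and its F test rest on a group that had to be high for it to be tested. All these values are near or under the pseudocount, and 204789_at changed by 0.45 in DU145 and 0.29 in MDA231 in the same arrays (adjusted p = 0.295 and 0.517). The averaged changes of the pair differed by 0.40 in 4 of 6 lines (two-sided permutation test, adjusted p = 0.0443). This difference too includes the DU145 cell bodies, which had to be high for 1569257_at to be tested.

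DAAM1 binds the Wnt receptor adaptor Dishevelled and acts in planar cell polarity. Its probe set 216060_s_at ranged from 143 to 683 in pseudopods and from 155 to 623 in cell bodies, with an averaged change of -0.08 (95% confidence interval -0.30 to 0.13; limma, adjusted p = 0.535) that turned to 0.01 with equal array medians. It was called with the mean of all 5 DAAM1 probe sets, 1 of them too dim to be tested (-0.16, limma, adjusted p = 0.0126). It was also called without probe sets marked as shared between transcripts (-0.20, limma, adjusted p = 0.0452). In U87 the pseudopod arrays at 227, 214 and 222 were all below the cell body arrays at 294.5, 286 and 311, a change of -0.40 ± 0.25 that was not called (adjusted p = 0.291).

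A dim DAAM1 probe set, 244062_at, fell in the averaged comparison by 0.43 ± 0.09 on the log2 scale (limma, adjusted p = 0.0002). In MDA231 it read 10.2, 7.8 and 18 in pseudopods and 29.0, 40.3 and 42.0 in cell bodies, and in MDA435 16.1, 9.6 and 23.6 against 39.8, 44.1 and 55.1. Fractions did not overlap in either line, with changes of -0.93 ± 0.22 and -0.96 ± 0.22 (limma, adjusted p = 0.00746 and 0.0032; 7.49% and 9.74% of probe sets fell in these lines). It reached the filter on low values in 4 of 12 groups, which were the cell bodies of U87, HT1080, MDA231 and MDA435, so its falls too rest on groups that had to be high for it to be tested. In U251 the value was 0.36 ± 0.22 (adjusted p = 0.311), and the difference between lines did not pass the F test (F = 5.22, adjusted p = 0.0857). The probe set 226666_at changed by -0.20 ± 0.08 (limma, adjusted p = 0.0434), a call lost with equal array medians (-0.10, adjusted p = 0.31) and after quantile normalization (-0.16, adjusted p = 0.11). The averaged change of 244062_at relative to 216060_s_at was not separated from 0 (difference 0.34 with 216060_s_at the higher, two-sided permutation test, adjusted p = 0.119).

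FHOD1, which bundles and caps filaments in stress fibres, had 1 probe set. It ranged from 76.1 to 326 in pseudopods and from 62.4 to 227.5 in cell bodies, and changed by 0.14 (95% confidence interval -0.06 to 0.33; limma, adjusted p = 0.242). In U87 the pseudopod arrays read 326, 182 and 221 and the cell body arrays 173, 200.5 and 150.3, which overlapped (0.41 ± 0.23, adjusted p = 0.23).

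Counted by line, 2 of 9 formins were called in U87 (DIAPH1 lower, INF2 higher; 23.6% of all genes called), 2 in U251 (DIAPH1 lower, DIAPH2 higher; 14.7%) and 1 in HT1080 (DIAPH1 lower; 25%). In DU145, MDA231 and MDA435 limma called none, where 3.02%, 6.07% and 11.8% of genes were called; at an unadjusted p under 0.05 there were 1 (DIAPH2), 0 and 1 (DIAPH1), against 18.3%, 21.4% and 23.8% of all genes. Arrays of the fractions did not overlap for 2 formins in U87, 2 in U251, 3 in HT1080, 3 in DU145, 0 in MDA231 and 2 in MDA435. Over all genes the share without overlap was 31.4% in U87, 39% in U251, 48% in HT1080, 31.7% in DU145, 21.1% in MDA231 and 24.7% in MDA435, so 0 to 3 of 9 formins is near or below the background. The formins called were 22.2% of the 9 in U87, 22.2% in U251 and 11.1% in HT1080. No formin passed the F test of a difference between lines at the gene level (1.04% of genes did), and 1, DIAPH1, had an unadjusted p under 0.05 there (9.91% of genes did).

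Over the 22 probe sets tested, 3 rose (both DIAPH2 probe sets and 1 of INF2; 25.5% of all probe sets rose) and 5 fell (1 of DIAPH1, 1 of FMNL1, 1 of FMNL3 and 2 of DAAM1; 24.6% fell). Of the 22, 14 reached the filter on low values in 12 of 12 groups and 2, 1569257_at of FMNL1 and 232249_at of FMNL3, in 1 group, so these counts are not independent of the filter. Within lines, the other formin probe sets called at this level were 224469_s_at of INF2, higher in U87 (8.76% of probe sets rose there), and 209190_s_at of DIAPH1, lower in U87 and U251 (12.2% and 9.99% fell) and in HT1080. The gene-level call of DIAPH2 in U251 did not pass among all probe sets. Of 13 pairs made of the probe set used for a gene and another one of that gene, 4 differed by the permutation test, in DIAPH1 (2 pairs), FMNL1 and FMNL3. The FMNL1 pair includes 1569257_at, so its difference is not independent of the filter either. The 7 untested probe sets, of DIAPH1, DIAPH2, DIAPH3, FMNL2, DAAM1 and INF2 (2), had no group mean above 13.5. Which transcripts each probe set reads was not analysed here, so transcript forms and probe performance cannot be told apart.

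**Figure D3:**
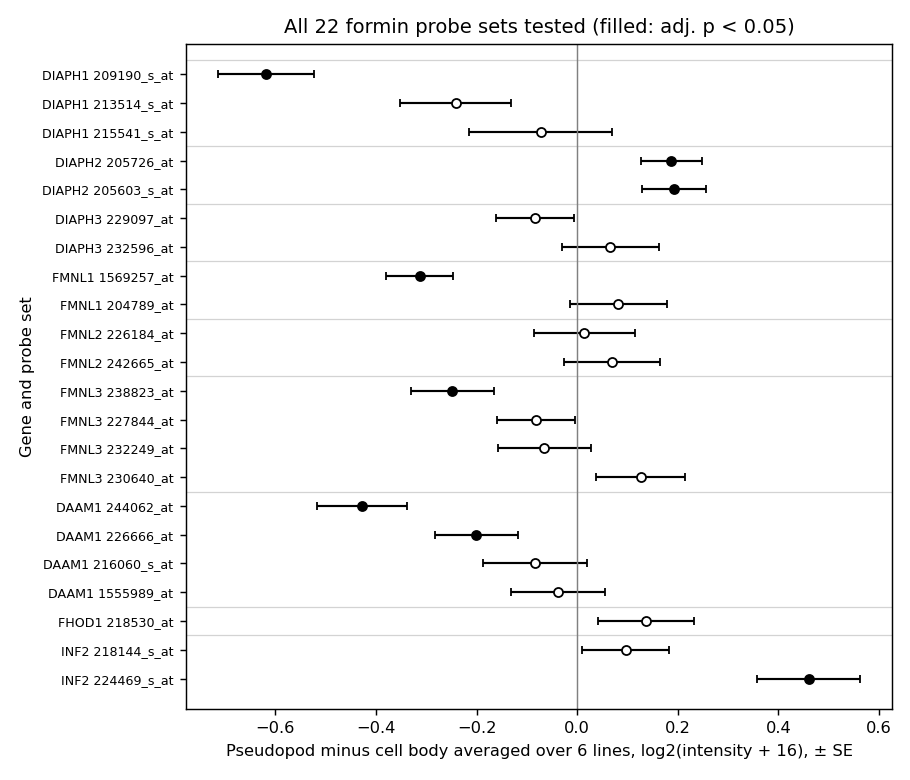
Log2 change, pseudopod minus cell body averaged over 6 lines, of each of the 22 formin probe sets tested (rows, grouped by gene), with its standard error as a bar; filled points were called at an adjusted p under 0.05. The DIAPH2 probe sets lie together at 0.19, while those of DIAPH1 are spread from -0.62 to -0.07.

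The levels of the formins in cell bodies differed between lines for 8 of 9 genes in 5 or more of the 15 pairs of lines, and for DIAPH1 in 1. Over all formins 77 of 135 pairs were called (57.0%), against 33.9% to 46.5% of all genes in the same pairs (median 40.5%). This difference was not tested. The pairs share lines, and FMNL1 passed the filter on low values only through lines where it was brighter. INF2 was called in 12 pairs, DIAPH2 in 13, FMNL3 in 11, FMNL1 and FMNL2 in 10 each, DIAPH3 in 8, DAAM1 in 7 and FHOD1 in 5. For U87 the share of all genes called was 38.1% against U251, 34.2% against HT1080, 42.8% against DU145, 44.5% against MDA231 and 46% against MDA435. For U251 it was 40.5% against HT1080, 41.9% against DU145, 46.5% against MDA231 and 45.6% against MDA435, and for HT1080 it was 37.8% against DU145, 36.7% against MDA231 and 39% against MDA435. For DU145 it was 36.6% against MDA231 and 42.5% against MDA435, and for MDA231 it was 33.9% against MDA435. These levels are of cell bodies only, and medium differs between the lines as given above.

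DIAPH1 was the most even, from 1168 ± 56.4 in HT1080 down through DU145, U87, MDA435 and MDA231 to 719 ± 182 in U251 (SD, n = 3), 1.64-fold on the log2(intensity + 16) scale, and no neighbours in this order differed. DIAPH2 was highest in MDA435 (296 ± 24.3) and MDA231 (263 ± 46.6), followed by HT1080 (189.9), DU145 (139), U87 (116) and U251 (73.5 ± 10.9). The steps from HT1080 to DU145 and from U87 to U251 were called (limma, adjusted p = 0.0263 and 0.00273), as was that from MDA231 to HT1080 (adjusted p = 0.0218), though not with equal array medians (adjusted p = 0.106). DIAPH3 went from 849 ± 127 in MDA231 through U251, MDA435, HT1080 and U87 to 377 ± 87.9 in DU145, with no called step between neighbours.

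On the log2(intensity + 16) scale INF2, read by probe set 224469_s_at, spanned the widest range. It went from 347 ± 30.4 in DU145 to 48.3 ± 13.4 in HT1080 (SD, n = 3, 5.71-fold on that scale). In plain intensity the ratio of the highest to the lowest line was larger for FMNL1 (49.7 in MDA231, 3.03 in U87), whose low end lies under the pseudocount. U87 was second at 216 ± 58.6, above U251 (112), MDA231 (89.8) and MDA435 (83.1), and its step to U251 was called (limma, adjusted p = 0.00581). The steps from DU145 to U87 (adjusted p = 0.0303) and from MDA435 to HT1080 (adjusted p = 0.046) were called too, but not with equal array medians (adjusted p = 0.0798 and 0.0778). The other tested INF2 probe set, 218144_s_at, gave a different order. There DU145 was lowest at 49.1 ± 9.7, HT1080 read 83.1 ± 3.3 and MDA231 was highest at 126 ± 51.0 (SD, n = 3). Its differences between lines were not tested. FMNL2 was highest in MDA435 (2052 ± 434) and HT1080 (1674 ± 249.7), with a called step from HT1080 to MDA231 (968 ± 214; limma, adjusted p = 0.0118), and lower in U87, U251 and DU145 (575 ± 168).

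FMNL3 was highest in U87 (145 ± 17.4), then HT1080 (93.8 ± 8.0), with both the step between them and that from HT1080 to MDA435 (53.7) called (limma, adjusted p = 0.0482 and 0.0166), and it was lowest in U251 (31.1 ± 2.5). FMNL1 fell into a brighter set, MDA231 (49.7 ± 18.3), HT1080 (34.2) and DU145 (24.5 ± 13.3), and a dim one, MDA435 (4.9), U251 (3.2) and U87 (3.0), with a called step between DU145 and MDA435 (limma, adjusted p = 0.00216). Its probe set 204789_at reached the filter on low values in 5 of 12 groups, all of HT1080, DU145 or MDA231. The split and the called step are therefore not independent of the filter. DAAM1 ran from 517 ± 119 in HT1080 to 185 ± 27.8 in U251, with no called step between neighbours except from HT1080 to MDA231 under equal array medians (limma, adjusted p = 0.0496) and quantile normalization (adjusted p = 0.0498). FHOD1 ran from 174 ± 25.2 in U87 to 86.1 ± 20.6 in U251, and only its lowest step, from HT1080 (138) to U251, was called (limma, adjusted p = 0.0367), though not with equal array medians (adjusted p = 0.0748).

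**Figure D4:**
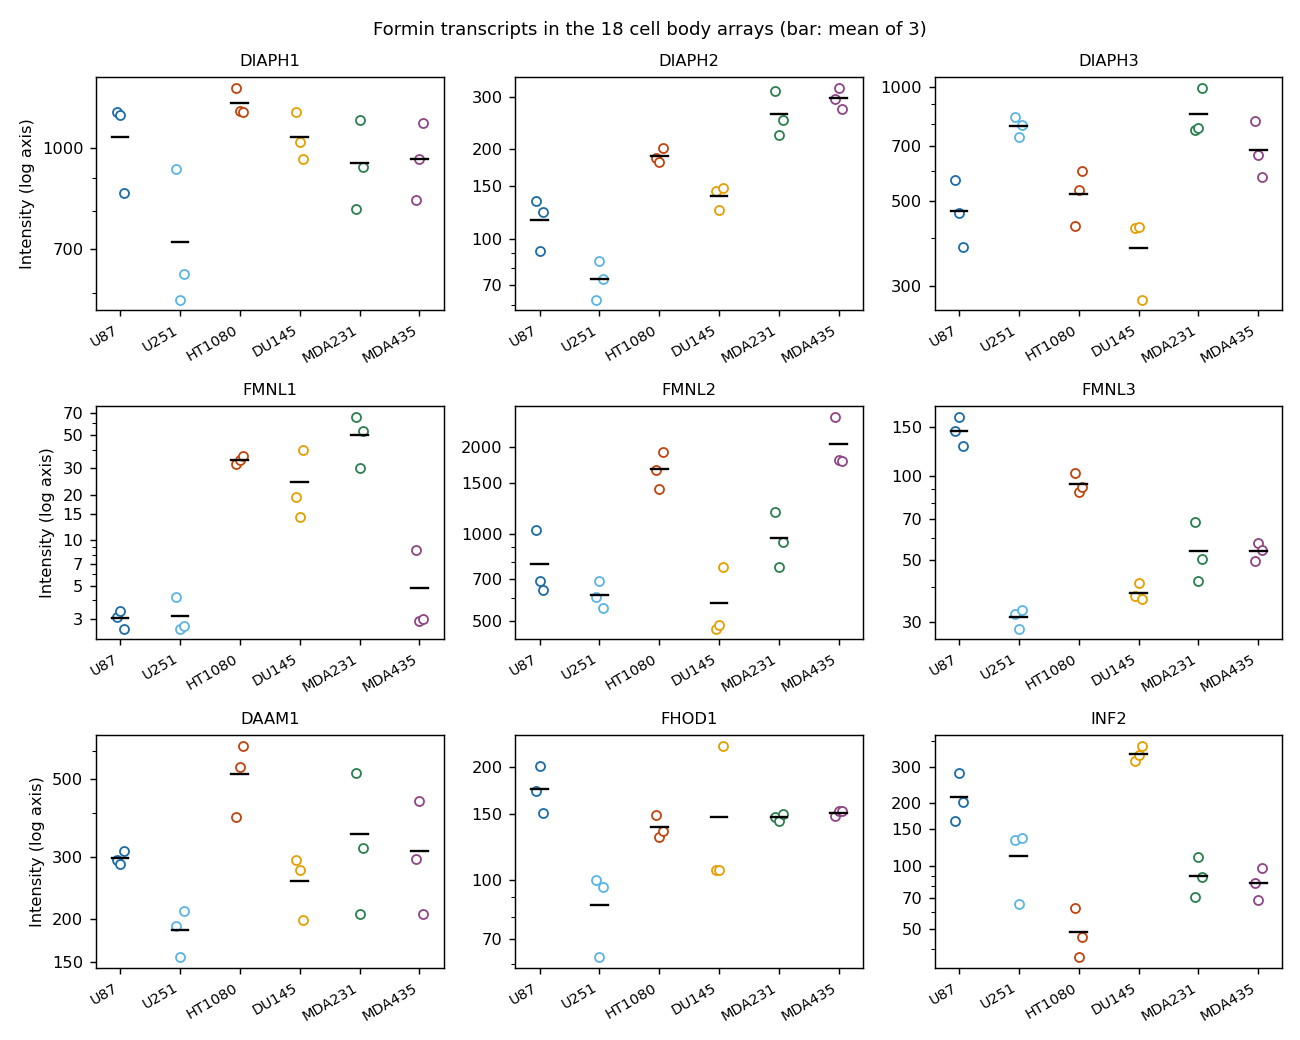
Intensity on a log axis of each formin gene in the 18 cell body arrays, 3 per line, with the mean as a bar; each panel has its own axis and levels are not comparable between panels. INF2 spans the range from 48.3 in HT1080 to 347 in DU145, DIAPH1 the narrower one from 719 in U251 to 1168 in HT1080, and FMNL1 is under 10 in U87, U251 and MDA435. Each gene is shown by the probe set used for it, and other tested probe sets of INF2 and DIAPH1 order the lines differently.

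In the arrays that stood apart in CDH1, DAAM1 and DIAPH2 did not go 1 way, while FMNL2 did. In MDA231, PS replicate 3 and CB replicate 2 held the lowest DAAM1 (254 and 207) and the lowest DIAPH2 (237 and 223) of their fractions. In MDA435, PS replicate 2 and CB replicate 2, also high in CDH1, held the highest DAAM1 (312 and 432.5) and the highest DIAPH2 (319.5 and 321). The remaining MDA435 arrays high in CDH1, PS replicate 1 and CB replicate 3, held the lowest DAAM1 (199.0 and 206.5). They also held the lowest DIAPH2 of their fractions (272.8 in each). FMNL2 was lowest of its fraction in MDA231 PS replicate 3 and CB replicate 2 (705 and 769). In MDA435 it was highest in PS replicate 3 and CB replicate 1 (2573 and 2554), the MDA435 arrays low in CDH1. For the epithelial list, the summed intensity of 13 markers ran from 8307 to 15111 in MDA231 pseudopods, from 6854 to 14579.9 in MDA231 cell bodies, from 1926 to 13214 in MDA435 pseudopods and from 1512 to 13498 in MDA435 cell bodies. In the averaged comparison 2 of these 13 markers rose and 1 fell, where 29.7% of all genes rose and 20.8% fell. Their part in the formin values was not tested, and the 3 averaged formin calls held without these arrays (DIAPH2 0.19, limma, adjusted p = 0.0248).

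The other marker lists were summed in the same way over all lines. Their counts of calls stand against 29.7% of all genes rising and 20.8% falling in the averaged comparison, and no list was tested against these shares. The 7 melanocytic markers ran from 215.5 to 7620.0 in pseudopods and from 223 to 7978 in cell bodies, with at least 4414 in MDA435 pseudopods and 4692 in MDA435 cell bodies, and 2 of 6 tested fell. The 7 glial and neural markers ran from 128 to 10738 and from 160.2 to 11754 (0 rose and 3 of 7 fell), the 6 mesenchymal markers from 3658 to 16623 and from 3162 to 23546 (1 rose and 4 of 6 fell), and the 6 blood cell markers from 104 to 777 and from 113 to 789.8 (1 of 5 tested fell). The epithelial sum was highest in DU145, a carcinoma (12740.0 to 18163), and lowest in U87 (177 to 249.6). The other non-epithelial lines were not at the level of U87: U251 ran from 3672 to 5353 and HT1080 from 2162 to 3453, above the lowest MDA435 arrays. No blood cell or other marker list was at 0 in sum.

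Of the other formin genes, 4 of 5 listed were on the array and tested, and none was called in the averaged comparison. DAAM2, a relative of DAAM1, changed by -0.19 ± 0.10 (limma, adjusted p = 0.135), FHOD3, the formin of heart muscle, by 0.24 ± 0.13 (adjusted p = 0.131), FMN1 by -0.06 ± 0.09 (adjusted p = 0.612) and FMN2, known from the oocyte spindle, by -0.07 ± 0.12 (adjusted p = 0.675). With equal array medians 1 of the 4, FHOD3, was called higher.

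The listed genes that act with formins more often rose than fell. These counts are read against 29.7% of all genes rising and 20.8% falling, and equal array medians changed the share of risers among all called genes from 58.8% to 71.5%. Lists were written with earlier results of these data known.

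PFN1, the profilin that feeds actin to formins, rose by 0.43 ± 0.06 from 1974 ± 334 to 2654 ± 439 intensity units (SD, n = 18 each; limma, adjusted p = 2.45e-07), 1 of 3 monomer partners tested, with 0 lower. Among 13 scaffolds and SH3 partners 9 rose and 1 fell. The one that fell, IQGAP1, a DIAPH1-binding scaffold, dropped from 1665 ± 326 to 528 ± 233 (log2 change -1.72 ± 0.13, 3.30-fold lower; limma, adjusted p = 1.45e-11), and the largest rises were those of DVL1, which binds DAAM1, by 0.45, FNBP1 by 0.43 and BAIAP2L1 by 0.35. Of 4 microtubule partners 2 rose (GSK3B by 0.18 and MAPRE1 by 0.17, the latter not called with quantile normalization) and 2 fell, CLIP1 by 0.61 from 858 ± 185 to 562 ± 146 and APC, which is bound by DIAPH1, by 0.35.

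**Figure D5:**
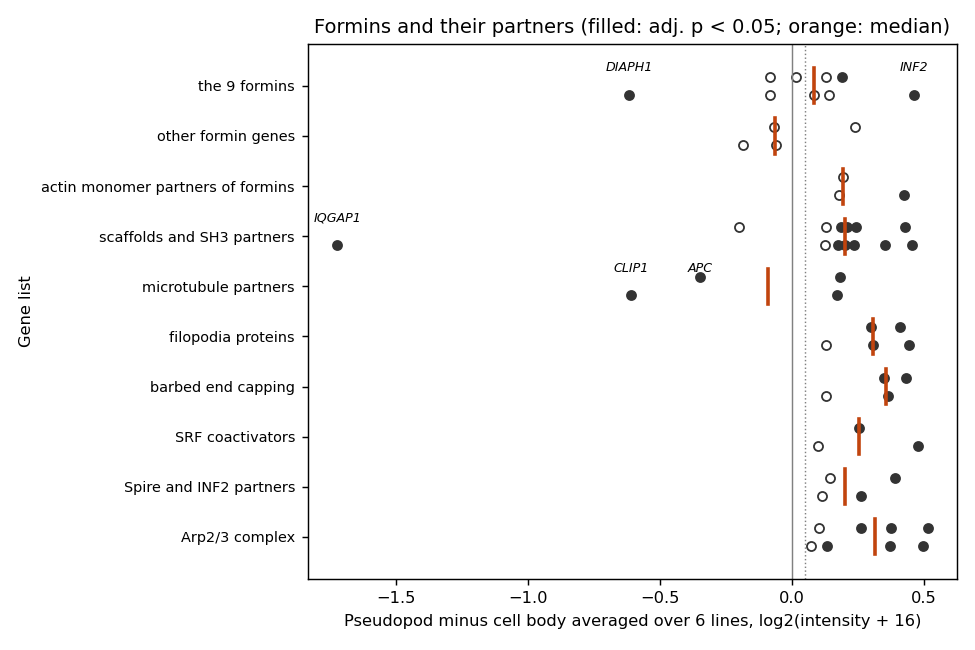
Log2 change, pseudopod minus cell body averaged over 6 lines, of the formins and of the genes of the partner lists shown (rows), 1 point per gene, filled where called at an adjusted p under 0.05, with the list's median in orange and the median of all genes, 0.05, as a dotted line. The formin median lies at 0.08 and that of the Arp2/3 complex at 0.31; IQGAP1, at -1.72, is the lowest point.

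Of 5 filopodia proteins 4 rose and 0 fell, with EVL at 0.44, FSCN1 (fascin, which bundles filopodial actin) at 0.41, VASP at 0.31 and ENAH at 0.30. Of 4 barbed end capping genes, whose products compete with formins for filament ends, 3 rose and 0 fell (CAPZA2 by 0.43, CAPG by 0.36 and CAPZB by 0.35). In the list of SRF and its coactivators, the latter responding to actin monomer use, 2 of 3 genes rose (SRF by 0.48 and MRTFA by 0.25). SPIRE1, which nucleates filaments together with FMN formins, rose by 0.39, and DNM1L, the mitochondrial fission GTPase that acts after INF2, by 0.26, 2 of 4 genes of that list. For the Arp2/3 complex, the nucleator of branched actin, 6 of 8 subunits rose and 0 fell (median 0.31), with ARPC3 at 0.51, ARPC1A at 0.49, ARPC1B at 0.38 and ARPC5L at 0.37. In the same comparison 2 of 9 formins rose and 1 fell; the difference between these lists was not tested.

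By pattern over the 12 group means, the genes most like DIAPH1 were CREG1 (Pearson r = 0.943), SLC39A10 (0.923), CD55 (0.922), MSMO1 (0.909) and GPAT3 (0.906). These correlations describe 12 points that share lines and arrays, and DIAPH1 itself was chosen for this by having the largest averaged change. The fall of DIAPH1 in pseudopods is part of the pattern by which these 5 genes were found.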

How the data were processed

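RNA of 36 pseudopod and cell body samples was measured on HG-U133 Plus 2.0 arrays. The authors deposited linear intensity values, 1 column per array; RMA and Partek appear in the submitters' processing notes, with no version and no stated use, and which program made these values is not stated in the labels. The planned analysis assumed log2 values, so log2(intensity + 16) was computed from the deposited intensity values. Probe sets with 1 symbol (41074 of 54593; 1798 had several, 11721 none) were named through the platform annotation, and 41020 were brought to current symbols through Entrez numbers in the RefSeq table (assembly GRCh38.p14), used for names and not for coordinates. All 9 formins were matched.

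A gene was its probe set with the highest mean log2 value. Genes and probe sets whose highest group mean did not reach 24.4 intensity units, the median of the whole table, were not tested. limma 3.58.1 in R 4.3.3 was fitted to 12 group means (24 residual degrees of freedom) over all genes, and separately over all probe sets, with the contrasts within lines, their average, an F test of the differences between lines, and the 15 pairs of lines among cell bodies. Probe sets of a gene were compared by a two-sided permutation test (100000 resamples of fraction labels within lines; Benjamini-Hochberg over 13 pairs), chosen after their values were seen. The fit was tested on simulated data. Figures were drawn in Python 3.11.15.

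Named genes are all formins, up to 4 called members of each list with the largest averaged change, and the 5 genes closest in pattern to the formin with the largest change; IQGAP1 and other genes outside that order were named after their values were seen. Some of the listed partner genes are not reported here. The members and lists were chosen with earlier results of these data known. Alternatives were another scaling, pseudocount, filter, probe set rule, spread model, unit of replication and left-out arrays or lines. The number of arrays limits the precision.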

Additional observations from a re-analysis of the deposited data

Results flagged for a closer look

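The FMNL1 probe set 1569257_at differed between lines in its pseudopod change by the moderated F test (F = 8.04, limma, adjusted p = 0.0126 over 34976 probe sets). It reached the filter on low values in 1 of 12 groups, the DU145 cell bodies, so the test rests on a group that had to be high for the probe set to be tested, and its values lie near or under the pseudocount of 16. It fell in DU145, HT1080 and MDA231 and not in U87, U251 or MDA435, where its intensities were at most 9.4. The probe set used for FMNL1 at the gene level, 204789_at, did not pass the same test (F = 1.18, adjusted p = 0.933).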

How the results depend on the processing

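The averaged calls of DIAPH1 (-0.76 to -0.25 over 18 alternatives, limma, adjusted p up to 0.00364) and INF2 (0.16 to 0.56, adjusted p up to 0.00618) kept their direction and their call. Without shared probe sets neither gene was tested. DIAPH2 ran from 0.14 to 0.28 over 19 alternatives and lost its call 3 times, as given above. In the averaged comparison 2 formins were called higher and 1 lower; 1 was called higher with lines as units, without DU145, without U251 and without shared probe sets, and 2 were called lower with the mean of all probe sets.

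Within lines the counts of formins called higher moved to 1 in DU145, HT1080 and MDA435 and 2 in U251 with array weights, to 1 in DU145 with quantile normalization, to 1 in HT1080 and 0 in U251 and U87 with lines fitted alone, to 0 in U251 and U87 with the mean of all probe sets, to 0 in U251 with a pseudocount of 64 or a trended robust spread, and to 0 in U87 without shared probe sets. The counts called lower moved to 0 in U87 with equal array medians or the line fitted alone, to 0 in U87, U251 and HT1080 with the mean of all probe sets and without shared probe sets, and to 1 in MDA435 with the mean of all probe sets, array weights or quantile normalization. The F test called 1 formin with array weights and 0 otherwise, and over all genes 2326 with array weights, 19 with a pseudocount of 1, 393 with a pseudocount of 64 and 35 with the replicate block, against 159. Over all alternatives, single arrays included, the counts of all genes called within lines ran widely: in U87 518 to 2305 higher and 899 to 2132 lower (reported 1801 and 1807), in U251 408 to 2236 higher and 1068 to 2137 lower (reported 826 and 1429), in HT1080 1206 to 3649 higher and 1450 to 2519 lower (reported 1977 and 1844), in DU145 11 to 1570 higher and 77 to 1725 lower (reported 126 and 336), in MDA231 0 to 1863 higher and 0 to 2270 lower (reported 181 and 747), and in MDA435 25 to 2478 higher and 217 to 2523 lower (reported 453 and 1346). The highest counts came with array weights in every line but U87, and 0 genes were called in MDA231 fitted alone (limma; 2154 at an unadjusted p under 0.05).

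The sign turned for formin changes that were not called. With equal array medians these were DAAM1 in DU145 (0.033) and averaged (0.014), DIAPH1 in MDA231 (0.13), DIAPH3 averaged (0.013), FHOD1 in U251 (0.015) and in MDA435 (0.016), FMNL2 in HT1080 (0.0032) and in MDA231 (0.058), FMNL3 in MDA231 (0.044). With quantile normalization they were FHOD1 in U251 (0.0019), FMNL2 averaged (-0.036), FMNL3 in MDA231 (0.045). With array weights they were FMNL2 in U87 (-0.016) and in U251 (-0.033). With the mean of all probe sets they were DAAM1 in U251 (0.13) and in MDA231 (-0.29), DIAPH3 in U251 (0.20), in HT1080 (0.13) and in DU145 (-0.067), FMNL1 in U251 (0.094), in DU145 (-0.24), in MDA231 (-0.18) and averaged (-0.12), FMNL2 in MDA231 (0.0084), FMNL3 in U251 (0.027), in HT1080 (-0.11), in DU145 (-0.0066), in MDA435 (-0.24) and averaged (-0.067). Without shared probe sets they were DAAM1 in HT1080 (-0.11) and in MDA231 (-0.27). Without the arrays high in CDH1 they were DIAPH1 in MDA231 (0.046), DIAPH2 in MDA231 (-0.014), FHOD1 in MDA435 (0.081), FMNL1 in MDA435 (-0.47) and averaged (-0.022), FMNL2 in MDA435 (0.011). Without DU145 it was FMNL2 averaged (-0.044). The mean of all probe sets includes those too dim to be tested. The causes were not tested.

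Leaving out 1 array at a time gave averaged changes of -0.66 to -0.57 for DIAPH1, 0.41 to 0.51 for INF2 and 0.16 to 0.21 for DIAPH2, with 2 formins called higher and 1 lower each time. The count called higher ran from 0 to 1 in U87 and U251 and that called lower from 0 to 2 in U87; the F test called 102 to 769 genes, reaching beyond 1.5 times the 159 without U87 PS replicate 3 or HT1080 CB replicate 2, and 0 formins. Single arrays turned the sign of formin changes that were not called, with these lowest and highest values: FMNL2 averaged -0.030 to 0.051, in U87 FMNL1 -0.088 to 0.15, FMNL2 -0.050 to 0.29 and DIAPH2 -0.057 to 0.18, in U251 FMNL2 -0.071 to 0.14, FMNL3 -0.50 to 0.037 and FHOD1 -0.22 to 0.060, in HT1080 FMNL2 -0.17 to 0.042, in DU145 DIAPH3 -0.086 to 0.26 and DAAM1 -0.24 to 0.023, in MDA231 DIAPH2 -0.087 to 0.15, DAAM1 -0.19 to 0.44, FHOD1 -0.017 to 0.27, FMNL2 -0.26 to 0.054, INF2 -0.047 to 0.27, FMNL3 -0.28 to 0.026 and DIAPH1 -0.14 to 0.076, in MDA435 FMNL2 -0.43 to 0.049, DIAPH2 -0.024 to 0.10, FMNL1 -0.14 to 0.15, FHOD1 -0.13 to 0.0062, DIAPH3 -0.23 to 0.0045 and DAAM1 -0.46 to 0.050. Over all genes, 4360 to 4661 rose and 3072 to 3317 fell in these fits.

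The replicate block gave DIAPH1 -0.62 (limma, adjusted p = 6.94e-05), INF2 0.46 (adjusted p = 0.00243) and DIAPH2 0.19 (adjusted p = 0.00844), and changed no formin call. The numbers did not pair the arrays: of 18 same-numbered pairs 4 had a correlation over 0.1 (-0.776 to 0.688), and 7 of 36 arrays correlated best with their own number. Signal limits FMNL1 and the dim probe sets, which lie near or under the pseudocount.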
